A study of Homo sapiens with 6 samples.

Results

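The genes described here are SYK, the kinase named as the target of fostamatinib, and 9 of its signalling partners: the Src family kinases LYN, FYN, SRC and YES1, the focal adhesion kinase PTK2, the ubiquitin ligases CBL and CBLB, and the phospholipases PLCG1 and PLCG2. Their rows were found by symbol, with no threshold on a measured value. Of the 10 genes, 8 were matched by symbol among the 16305 genes that carried values, and SYK and FYN, searched for by symbol and by Ensembl identifier, were not analysed here. SYK is a cytoplasmic tyrosine kinase best known from blood cells. There, Src family kinases phosphorylate the tails of immune receptors, SYK binds these tails and is activated, and the signal passes through adaptors to the gamma phospholipases, which release calcium and activate protein kinase C. CBL proteins attach ubiquitin to the activated kinases and receptors and so limit the signal. Outside blood cells, SRC and YES1 act with focal adhesion kinase downstream of integrins and growth factor receptors.

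RNA-seq was performed on Huh7SR cells (Huh7-R in the study's methods), a pool made resistant to the kinase inhibitor sorafenib by long exposure of the hepatocellular carcinoma line Huh7. Sorafenib was withdrawn from the medium some days before the experiments. The cells received fostamatinib, an orally taken prodrug of a SYK inhibitor, or the vehicle DMSO, for 24 h. The labels give 2 µM for both groups, with 3 samples each. Whether the samples of a group were separate cultures is not given, so the p-values speak for these samples only.

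Each sample held 13303451 to 15272737 reads on the listed genes. Values are log2 CPM, the log2 of reads scaled to a common library size, and fold changes are fostamatinib minus DMSO on that scale, with the 95% interval of the limma fit where a range is given. Genes counted as changed passed an adjusted p of 0.05 in limma (Benjamini-Hochberg over all 16305 genes, two-sided). The variance behind these p-values came partly from a gene's own samples (4 residual degrees of freedom). More of it came from a variance trend over all genes (median 29.87 prior degrees of freedom). Of the hepatocyte markers 9 of 9 (albumin and apolipoprotein B among them) were measured, as the labelled cell type would have it, but at unlike levels. Their summed level was 4944 to 5276 CPM after DMSO and 6603 to 7005 CPM after fostamatinib. The lowest marker had a mean of only 1.51 CPM after DMSO. All 9 were called higher, with log2 fold changes from 0.21 to 3.19, the largest being that of the lowest marker. Of 10 blood cell markers only CD14 and LYZ had values, summing to 9.83 to 11.2 CPM and 9.67 to 11.7 CPM, and neither passed the test. The other 8, which include PTPRC, were not analysed here. Of 7 stromal and endothelial markers 4 had values, summing to 153.9 to 159.9 CPM after DMSO and 200.0 to 208.4 CPM after fostamatinib. COL1A2 made up most of this sum (143.1 CPM in the DMSO mean) and was called higher, as were PDGFRB and PECAM1 (log2 fold changes of 0.37, 0.95 and 0.51), while COL1A1 did not pass. The part of these shifts in the results was not tested.

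YES1, LYN, CBL and PLCG2 fell after fostamatinib, and none of the 8 measured genes rose. The change in mean expression was -21.5% for YES1, -23.4% for LYN, -11.6% for CBL and -55.8% for PLCG2. The close relatives of these genes, SRC, CBLB and PLCG1, did not pass the test, nor did PTK2. The 4 genes called are to be read against a wide response, since 47.8% of all genes tested passed the same test, 24.5% of them as lower and 23.3% as higher. Among the 13287 genes with at least 10 reads in every sample, to which all 8 belong, 55.1% passed. The median log2 fold change of the 8 genes was -0.13, against 0.0015 over all genes, and the median absolute value was 0.14 against 0.27. Fewer cells expressing a gene and less RNA per cell cannot be told apart in these bulk samples.

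**Figure D1:**
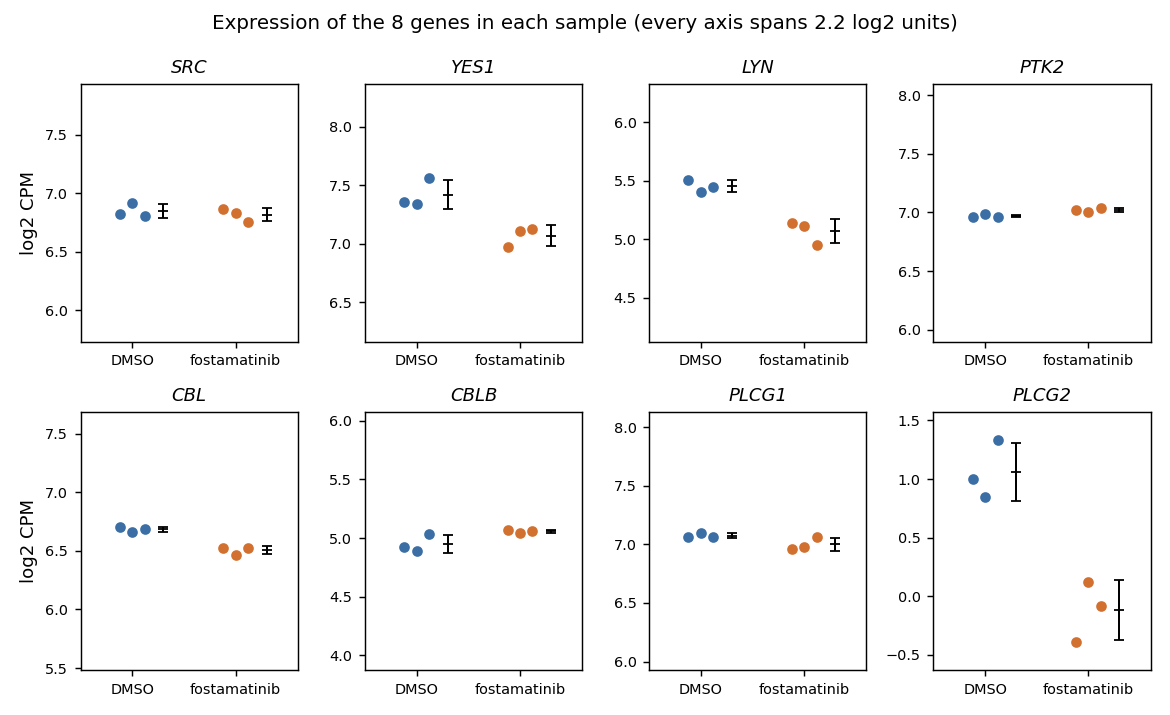
Expression of each measured gene (log2 CPM, vertical axes, each spanning the same range of log2 units) in the 3 DMSO samples (blue) and the 3 fostamatinib samples (orange), with the mean and SD of each group as black marks. The groups lie apart with fostamatinib lower for YES1, LYN, CBL and PLCG2, apart with fostamatinib slightly higher for PTK2 and CBLB, and overlap for SRC and PLCG1.

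The Src family kinases carry a lipid anchor, SH3 and SH2 binding domains and a kinase domain, and are held inactive by phosphorylation of a tyrosine in the tail. YES1 (ENSG00000176105; hg19, minus strand of chr18:721588-812547) is, with SRC, a member found in most tissues. Its expression was 7.35, 7.34 and 7.56 log2 CPM after DMSO and 6.97, 7.11 and 7.13 log2 CPM after fostamatinib. Every treated sample lay below every control. The log2 fold change was -0.35 (SE 0.051, -0.45 to -0.24, limma adjusted p = 5.69e-07).

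The sequence at the start of YES1 is shown because YES1 had the smallest adjusted p of the 8 genes in the main limma fit. YES1 also fell where SRC, its close relative, did not pass the test. The ranking depends on the fit. In limma without the variance trend YES1 had the largest adjusted p of the 4 genes called (0.0264). Of the 10 genes, 6 had an entry among the RefSeq promoter sequences (GRCh38.p14). LYN and CBL had none, and the window of PLCG2 was not usable, so no other gene called could be shown beside YES1. The 141 bases shown end directly before the transcript start that RefSeq gives. They were cut from a window of 250 bases that matches chr18 of hg19 exactly once. The cut was made so that no annotated untranslated region of YES1 remained. In hg19 the 141 bases are chr18:812244-812384 on the minus strand. They lie within the gene span given above. Of 5 YES1 transcripts in GENCODE, 1 starts at the RefSeq position (812243), 1 starts inside the gene and 3 start further upstream. The outermost start, at 812547, belongs to a coding transcript. That it has no exon in the stretch follows from the cut. The remaining upstream starts belong to transcripts without a defined coding region, whose exons cover up to 115 of the 141 bases. Capitals mark the GC box GGGCGG, the core bound by SP1-type factors, on either strand.
YES1: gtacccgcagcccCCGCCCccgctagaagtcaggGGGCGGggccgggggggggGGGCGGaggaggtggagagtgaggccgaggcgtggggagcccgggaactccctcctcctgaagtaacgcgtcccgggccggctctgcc
The stretch is 76.6% G and C and holds 3 GC boxes, a motif present in 36.0% of promoter windows of this length. It holds 1 match to GCGTG, the core of the dioxin receptor motif, which 22.3% of windows hold, and no match to the ETS core CCGGAA (10.7% of windows) or the AP-1 motif TGANTCA (3.97% of windows). Both strands were searched for each motif. These are letters in a window and no measure of binding.

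LYN (ENSG00000254087; plus strand of chr8:56792394-56926728) is the Src family kinase that in B cells and mast cells starts receptor signalling upstream of SYK. It was at 5.51, 5.40 and 5.45 log2 CPM in the control samples, from 626 to 649 reads. After fostamatinib it was at 5.14, 5.12 and 4.95 log2 CPM, from 409 to 494 reads. The groups did not overlap, and the log2 fold change was -0.38 (SE 0.066, -0.52 to -0.25, limma adjusted p = 7.27e-06). The fall of LYN was of moderate size among all genes, 36.3% of which had a larger absolute change, and for YES1 that share was 40.0%.

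SRC (ENSG00000197122; plus strand of chr20:35973088-36034453), the founding member, was at 6.82, 6.91 and 6.81 log2 CPM after DMSO and 6.86, 6.83 and 6.76 log2 CPM after fostamatinib. The groups overlapped. The log2 fold change was -0.03 (SE 0.047, -0.13 to 0.06, limma adjusted p = 0.614), so the interval in percent ran from -8.42% to 4.55%, while that of YES1 ran from -27.0% to -15.6% and that of LYN from -30.2% to -16.0%.

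Differences between kinases were compared within each sample, as the log2 ratio of a pair, for 5 pairs of related genes in all, with an exact two-sided permutation test in which 3 samples against 3 cannot give a p below 0.10. The ratio of YES1 to SRC was 0.53, 0.43 and 0.76 after DMSO and 0.11, 0.28 and 0.38 after fostamatinib, lower in every treated sample (difference -0.32, exact p = 0.10). LYN to SRC moved alike, by -0.35, with the groups apart (exact p = 0.10). The ratio of LYN to YES1 overlapped between groups (difference -0.04, exact p = 0.80). Adjusted over the 5 pairs (Benjamini-Hochberg), the 4 exact p-values of 0.10 become 0.125, so no pair passed.

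**Figure D2:**
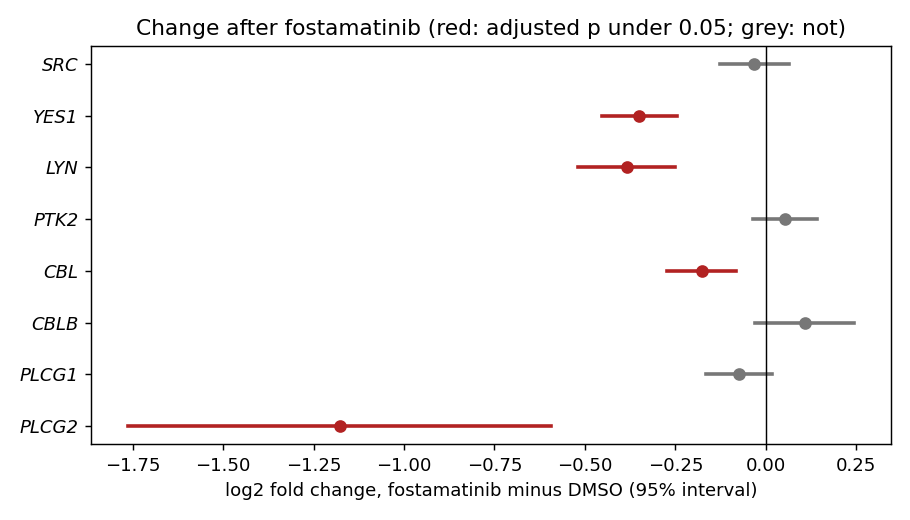
Log2 fold change (fostamatinib minus DMSO, points) with its 95% interval (lines) for the 8 measured genes. Red marks the 4 genes with an adjusted p under 0.05 in limma, all of which lie below 0, and grey the 4 that did not pass, whose intervals include 0.

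Per kilobase of merged exons YES1 was the most abundant of the 8 genes in the control samples, at 33.6 ± 2.97 CPM per kb (SD, n = 3). SRC followed with 16.1 ± 0.638, PLCG1 with 13.97 ± 0.208, PTK2 with 9.12 ± 0.077, CBL with 8.77 ± 0.134, LYN with 7.11 ± 0.257 and CBLB with 2.52 ± 0.140 CPM per kb. PLCG2 stood far below at 0.115 ± 0.020 CPM per kb. No neighbours in this order overlapped between their 3 control samples. The order depends on the length used: per kilobase of the longest transcript, PTK2 (24.4) and SRC (24.0) came level behind YES1 (36.98), ahead of PLCG1 (18.2 CPM per kb). After fostamatinib the levels per kilobase of merged exons were 26.4 ± 1.58 for YES1, 15.8 ± 0.604 for SRC and 5.45 ± 0.382 for LYN.

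The summed level of SRC, YES1 and LYN per kilobase was 55.3, 55.5 and 59.8 CPM per kb after DMSO and 46.6, 48.7 and 47.6 CPM per kb after fostamatinib, a mean change of -16.3% with the groups apart. SRC made up 28.7%, 30.4% and 26.2% of this sum in the controls and 35.0%, 32.8% and 31.8% in the treated samples. Its share was higher in every treated sample, by 4.75 percentage points in the mean (exact permutation p = 0.10, two-sided, the smallest 3 against 3 allows; 0.20 after Benjamini-Hochberg adjustment over the 3 kinases). The share of YES1 was 59.1% ± 2.53 (SD, n = 3) after DMSO and 55.4% ± 2.49 after fostamatinib, and that of LYN 12.5% ± 0.758 and 11.5% ± 0.873. Both overlapped between groups (exact permutation p = 0.20 for each). With longest transcripts as the length the share of SRC was 35.2% and 40.4%.

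**Figure D3:**
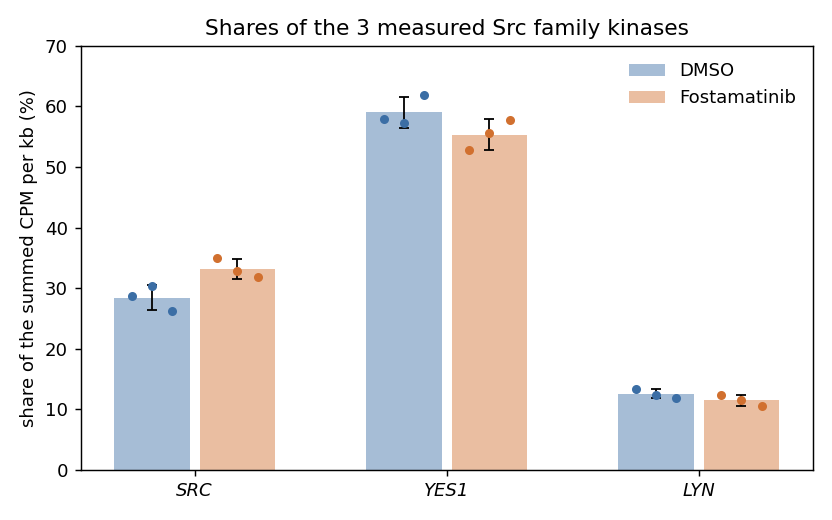
Share of each kinase in the summed CPM per kb of SRC, YES1 and LYN (percent, vertical axis starting at 0) after DMSO (blue) and fostamatinib (orange). Bars are means, error bars SD and points the 3 samples of each group. The share of SRC lies higher in all treated samples, at 31.8% to 35.0% against 26.2% to 30.4%.

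Of 8 further kinases close to the Src family or to SYK, only FRK was measured, and the other 7, which include the blood cell kinases LCK and ZAP70, were not analysed here. FRK, a Src-related kinase of epithelial cells, had 1089, 1100 and 1268 reads after DMSO and 848, 783 and 738 reads after fostamatinib. It fell by 0.45 on the log2 scale (SE 0.059, limma adjusted p = 5.95e-08), in every treated sample.

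Enzymes and proteins that set Src family activity changed in both directions. Of 22 such genes 13 were measured, 2 rose, 7 fell and 4 did not pass, with a median log2 fold change of -0.16. The share called was 69.2%, beside 47.8% of all genes (23.3% higher and 24.5% lower). UBASH3B, a tyrosine phosphatase that acts on SYK and binds CBL, changed most in this list: 592, 654 and 636 reads after DMSO and 121, 107 and 134 reads after fostamatinib (log2 fold change -2.29, SE 0.091, limma adjusted p = 3.35e-21). AFAP1, an actin filament protein that binds SRC, had 1368 to 1558 reads in the controls and 882 to 920 in the treated samples (log2 fold change -0.60, limma adjusted p = 1.64e-12). The genes that follow were named after their values were seen. CSK, the kinase that phosphorylates the inhibitory tail tyrosine, had a log2 fold change of 0.12 with overlapping groups (limma adjusted p = 0.143), and PAG1, the membrane adaptor that recruits CSK, fell by 0.44 (limma adjusted p = 3.78e-04). The SH2-domain phosphatase PTPN11 fell by 0.41 (limma adjusted p = 2.01e-11), and its relative PTPN6 rose by 0.38 (limma adjusted p = 9.33e-05). The lipid phosphatase INPPL1 was the other gene that rose, by 0.29.

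The filter on low reads, as the study's methods give it, dropped a gene that stayed under 5 reads in 2 or more samples of both treatments, and 5 reads corresponded to 0.328 to 0.377 CPM in these libraries. All 16305 genes with values, the 8 genes among them, reached 5 reads in 2 or more samples of DMSO or of fostamatinib, and whether the filter removed SYK and FYN was not tested. Of 23 adaptors and kinases that act beside SYK at immune receptors, 11 were measured, and 12, such as the receptor chain FCER1G and the kinase BTK, were not analysed here. Of the 11, 3 rose (SOS1, GRB2 and VAV2, the last with overlapping groups), 3 fell (SH3BP2, PIK3AP1 and SHC1) and 5 did not pass, a median log2 fold change of 0.05. In this list 54.55% were called, beside 47.8% of all genes. SH3BP2, an adaptor that binds SYK, had 1201, 1192 and 1134 reads after DMSO and 473, 464 and 457 reads after fostamatinib (log2 fold change -1.25, SE 0.060, limma adjusted p = 6.32e-19). SOS1, a RAS exchange factor, had 2549, 2702 and 3043 reads and rose to 4390, 4900 and 4497 reads (log2 fold change 0.82, SE 0.045, limma adjusted p = 2.12e-17), while its paralogue SOS2 was at 0.05 with overlapping groups (limma adjusted p = 0.545). SOS2, GRB2, VAV2, PIK3AP1 and SHC1 were named after their values were seen.

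PTK2 (ENSG00000169398; minus strand of chr8:141667999-142012315) encodes focal adhesion kinase, which docks SRC at integrin contacts. Its expression was 6.96, 6.98 and 6.97 log2 CPM after DMSO and 7.02, 7.01 and 7.04 log2 CPM after fostamatinib. All treated samples lay just above the controls, but the log2 fold change of 0.05 (SE 0.043, -0.04 to 0.14) did not pass the test (limma adjusted p = 0.333). Over all genes 54.1% had groups that did not overlap, 26.8% with fostamatinib higher and 27.4% with fostamatinib lower, and among the 8 genes there were 2 and 4.

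Of 27 genes of the focal adhesion complex 26 were measured, of which 8 rose, 7 fell and 11 did not pass, with a median log2 fold change of -0.03. In this list 57.7% were called, beside 47.8% of all genes. The largest changes among the genes called were FERMT1 at -0.97 and LPXN at 0.61 (limma adjusted p = 0.00196 and 0.0143). Both had a mean of fewer than 50 reads in both groups and were named after their values were seen. ASAP1, a GTPase-activating protein that binds SRC and focal adhesion kinase, had 1338, 1454 and 1445 reads after DMSO and 935, 1010 and 889 reads after fostamatinib (log2 fold change -0.49, limma adjusted p = 1.79e-10). TLN2, a talin that couples integrins to actin, had 149 to 198 reads in the controls and 209 to 236 in the treated samples (log2 fold change 0.47, limma adjusted p = 1.51e-04). PXN and BCAR1, substrates of the SRC and focal adhesion kinase pair, named after their values were seen, overlapped between groups at log2 fold changes of -0.06 and -0.02 (limma adjusted p = 0.328 and 0.714).

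CBL (ENSG00000110395; plus strand of chr11:119077008-119184636) and CBLB (ENSG00000114423; minus strand of chr3:105374305-105588396) are ubiquitin ligases that bind phosphorylated SYK and Src family kinases. CBL was at 6.70, 6.66 and 6.69 log2 CPM after DMSO and 6.53, 6.47 and 6.52 log2 CPM after fostamatinib. Its groups did not overlap, and the log2 fold change was -0.18 (SE 0.047, -0.27 to -0.08, limma adjusted p = 0.00191). CBLB was at 4.92, 4.89 and 5.04 log2 CPM in the controls and 5.07, 5.04 and 5.06 log2 CPM in the treated samples, just above them (log2 fold change 0.11, SE 0.067, -0.03 to 0.24, limma adjusted p = 0.198). The log2 ratio of CBL to CBLB was lower in every treated sample, by 0.28 in the mean (from 1.73 to 1.45, exact p = 0.10). Exons of CBL share 509 bases, 4.34% of their length, with MCAM on the opposite strand, which had a mean of 13.2 reads. The library kit keeps strand, and whether counting used it is not given in the sources used here.

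Of 8 genes for CBL relatives and binding proteins 6 were measured, of which 3 fell (SPRY2, SH3KBP1 and CBLL1, the last a related RING-type protein). Over all genes 24.5% were called lower. SH3KBP1 and CBLL1 were named after their values were seen. SPRY2, which binds CBL and restrains growth factor signalling, had 438, 556 and 508 reads after DMSO and 344, 288 and 297 reads after fostamatinib (log2 fold change -0.60, limma adjusted p = 5.86e-08).

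PLCG1 (ENSG00000124181; plus strand of chr20:39765600-39825441) is the widely expressed gamma phospholipase and PLCG2 (ENSG00000197943; plus strand of chr16:81812884-81996290) the one of blood cells. PLCG1 was at 7.06, 7.10 and 7.06 log2 CPM after DMSO and 6.96, 6.98 and 7.06 log2 CPM after fostamatinib. The groups overlapped (log2 fold change -0.07, SE 0.044, -0.16 to 0.02, limma adjusted p = 0.172). Exons of PLCG1 share 268 bases, 2.78% of their length, with ZHX3 on the opposite strand, which had a mean of 433 reads. Whether reads there were counted by strand is not given, as for CBL. PLCG2 was close to the read filter, with 27, 27 and 37 reads in the controls and 10, 15 and 12 in the treated samples, or 0.997, 0.85 and 1.34 against -0.39, 0.12 and -0.08 log2 CPM. The groups lay apart, with a log2 fold change of -1.18 (SE 0.288, -1.76 to -0.59, limma adjusted p = 8.73e-04). Only 6.45% of all genes had a larger absolute change, but the low counts leave a wide interval, from -70.6% to -33.7%. In the annotation used here 22.6% of the exon bases of PLCG2 also belong to a long non-coding RNA on the same strand. This RNA was not analysed here. The study counted with an earlier GENCODE release, and how its counts treat reads there was not tested. The log2 ratio of PLCG2 to PLCG1 was -6.01 after DMSO and -7.12 after fostamatinib, with the groups apart (exact p = 0.10).

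A further list held 31 genes: other phospholipase C genes, calcium channels of the endoplasmic reticulum, protein kinase C, RASGRP, calcineurin and NFAT genes. Of the 31, 25 were measured. Of the 25, 10 rose, 7 fell and 8 did not pass, with a median log2 fold change of 0.09. In this list 68% were called, beside 47.8% of all genes. RASGRP1, a RAS exchange factor opened by diacylglycerol, had 54, 55 and 50 reads after DMSO and 8, 13 and 8 reads after fostamatinib (log2 fold change -2.34, SE 0.268, limma adjusted p = 4.00e-09). PLCD1, a delta phospholipase, had 33, 37 and 34 reads and rose to 61, 71 and 60 reads (log2 fold change 0.96, limma adjusted p = 3.90e-05). Within gene families the direction differed, as the following genes, named after their values were seen, show. RASGRP3 rose by 0.66 (limma adjusted p = 6.77e-04) where RASGRP1 fell. Among the protein kinase C genes PRKCA and PRKCD rose, by 0.36 and 0.42, and PRKCE and PRKCH fell, by 0.63 and 0.95. The calcineurin genes PPP3CA and PPP3R1 fell by 0.26 and 0.56, and PPP3CB, at 0.13, did not pass (limma adjusted p = 0.155). NFATC2, NFATC3 and NFAT5 rose by 0.52, 0.15 and 0.43, and NFATC1, at -0.48, did not pass (limma adjusted p = 0.245).

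Over the 7 pathway lists together 91 of 131 genes were measured, and 58 of them (63.7%) passed the test, 28 higher and 30 lower, beside 47.8% of all genes. Among genes with at least 10 reads in every sample the share was 55.1%. The lists were chosen with earlier results of these data known, and the difference between these shares was not tested.

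**Figure D4:**
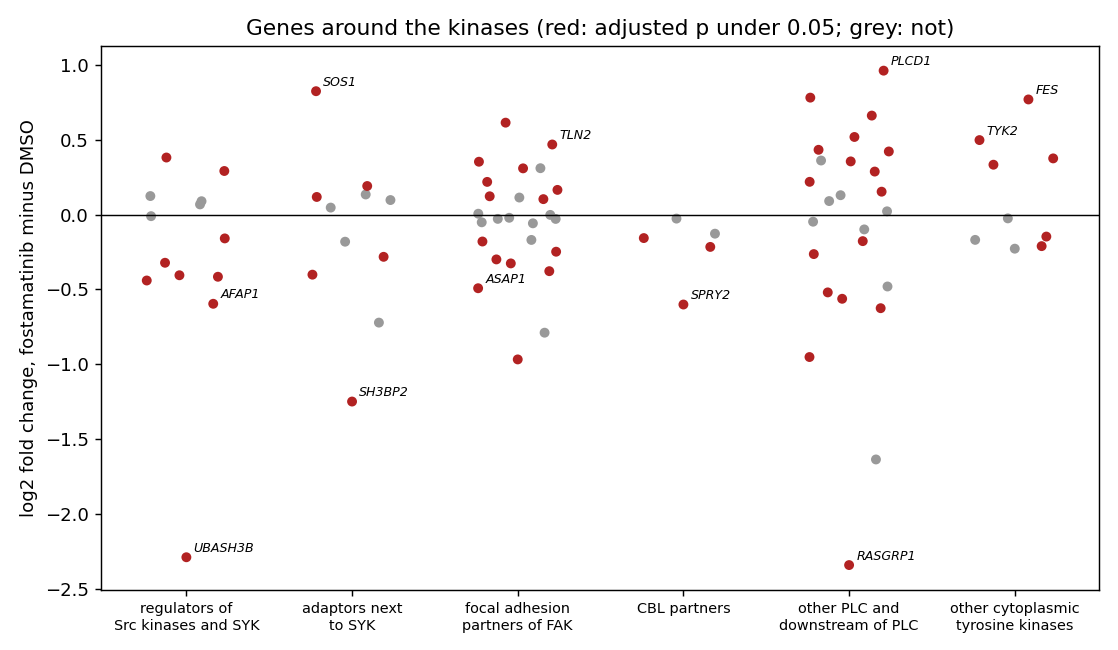
Log2 fold change (fostamatinib minus DMSO, vertical axis) of the measured genes of 6 pathway lists (horizontal axis), 1 point per gene, with horizontal offsets only to separate points and with labels on the genes named by rule. Red points passed an adjusted p of 0.05 in limma and grey points did not. Red points lie on both sides of 0 in each list except the CBL partners, where the 3 drawn lie below it and 1 measured gene is not drawn, and run from -2.34 (RASGRP1) to 0.96 (PLCD1), and the list whose only measured gene is FRK is not drawn.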

How the data were processed

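RNA-seq of poly(A) RNA was analysed in 3 DMSO and 3 fostamatinib samples, grouped by their labels. Per the study's methods, HISAT was used by the authors for mapping (hg19) and featureCounts, with GENCODE gene models, for counting. Genes under 5 reads in 2 or more samples of each group were dropped, and libraries were scaled by TMM. The deposited values are log2 CPM, made by the authors from the count plus 0.5. Whole reads were recovered from them (every value within 0.05 of a whole number) and used for depth and other filters. The test was limma's (version 3.58.1, run under R 4.3.3, with lmFit and a trended eBayes). It was run on all 16305 genes, with treatment as the only term. Exact permutation tests used numpy 2.4.6 under Python 3.11.15, their Benjamini-Hochberg adjustment scipy 1.17.1, and tables pandas 2.3.3. Positions and lengths came from GENCODE 44 lifted to GRCh37 (hg19), which held 98.7% of the gene identifiers. Named genes were the 10 genes and, from each list, called genes with an absolute log2 fold change of at least 1 and a mean of 50 reads in the higher group, or, where these were fewer than 2, the 2 largest called changes with that many reads. The genes and lists were chosen with earlier results of these data known. Alternatives were other scalings, fits, filters, thresholds and lengths, a replicate block and leaving out each sample. A listed gene chosen by this rule and some marker and list names are not reported here.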

Additional observations from a re-analysis of the deposited data

How the results depend on the processing

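All 4 genes called among the 8 were called under limma-voom, eBayes without a trend, RLE or library size scaling, both stricter read filters and without any 1 sample (4 in each). Without a trend the limma adjusted p was 0.00655 for PLCG2, 0.0102 for LYN, 0.0255 for CBL and 0.0264 for YES1. At a threshold of 1 expected false positive over all genes, 2 of the 8 (LYN and YES1) and 35 of the 91 listed genes were called, and 25.4% of all genes. For the listed genes the count was 58, 50 without a trend and 53 to 62 without 1 sample, beside 7794, 6382 and 6958 to 7480 of all genes. Without 1 sample the log2 fold change ran from -0.42 to -0.33 for LYN, from -0.39 to -0.28 for YES1, from -0.19 to -0.16 for CBL and from -1.30 to -1.04 for PLCG2, with limma adjusted p-values of at most 0.0201, and of at most 0.0264 over all alternatives. SRC ran from -0.0546 to 0.00091, turning direction without DMSO replicate 2 (0.00091, limma adjusted p = 0.991), and was called under none of the alternatives run. Without 1 sample the change in share ran from 3.64 to 5.73 percentage points for SRC, from -4.86 to -2.25 for YES1 (-2.25 without DMSO replicate 3, -2.38 without Fostamatinib replicate 1) and from -1.47 to -0.60 for LYN (-0.60 without Fostamatinib replicate 3, -0.65 without DMSO replicate 1). RASGRP1 has no value under the filter of 10 reads in every sample.

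Same-numbered samples did not deviate together (r = 0.036, -0.021 and 0.037, each under 0.1). Whether they shared a culture or a day is not given, and these correlations cannot settle it. With a replicate block 4 of the 8 genes and 59 of the listed genes were called, and the log2 fold changes were as without it. The limma adjusted p with the block was 1.4e-13 for YES1, 5.34e-08 for LYN, 0.00137 for CBL and 3.48e-04 for PLCG2. The block leaves each gene fewer residual degrees of freedom than the main fit. How much of the variance then came from all genes together is not given here. The smaller p-values are therefore not read as stronger evidence. Depth limits PLCG2, with 10 to 37 reads a sample, and 3 samples a group limit every exact test to p = 0.10.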

Other observations

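Cytoplasmic tyrosine kinases of other families also changed in both directions. Of 12 listed genes 9 were measured, of which 4 rose, 2 fell and 3 did not pass the test, with a median log2 fold change of -0.03. In this list 66.7% were called, beside 47.8% of all genes. FES, a kinase of myeloid and epithelial cells, had 162, 235 and 218 reads after DMSO and 336, 342 and 298 reads after fostamatinib (log2 fold change 0.77, SE 0.093, limma adjusted p = 1.34e-08). TYK2, a Janus kinase of cytokine receptors, had 977, 1118 and 996 reads and rose to 1316, 1396 and 1386 reads (log2 fold change 0.50, SE 0.051, limma adjusted p = 3.96e-10). The remaining changes, named after their values were seen, were smaller: TNK1 and TNK2 rose by 0.38 and 0.33, and ABL2 and JAK1 fell by 0.21 and 0.15. ABL1, at -0.03 with overlapping groups, did not pass (limma adjusted p = 0.70).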
